A study of Rattus norvegicus with 12 samples.

Results

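Havcr1, Lcn2, Spp1 and Clu are the classic markers of injured kidney tubules. They were taken as the array rows annotated with exactly 1 of these symbols, which gave 4 rows, 1 per gene, of 18166 genes tested. RNA of rat kidney tissue was measured after ischemia-reperfusion injury (IRI), a stop of the blood flow followed by its return, either 2 or 7 days later. Rats received either placebo or anti-miR-182, an inhibitor of the microRNA miR-182, and all 12 animals had the injury, so no uninjured kidney is in the comparison. Both treatments were followed to both days, which makes 4 groups of 3 arrays, and the titles give each array an animal code of its own. The labels used here give no strain, age, dose or time of the inhibitor, and a description names a zero-hour biopsy although the titles name day 2 or day 7.

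When the tubule is injured, its epithelial cells lose their mature functions and switch on a repair programme. Havcr1 encodes kidney injury molecule 1, a membrane receptor that lets proximal tubule cells engulf dying neighbours and whose outer part is cut off into urine, so it is shed rather than secreted. Lcn2 encodes lipocalin 2, also called NGAL, which binds bacterial iron carriers and is made by injured distal tubule and by neutrophils. Spp1 encodes osteopontin, a phosphoprotein of matrix and urine that binds integrins and CD44, made by tubule cells and by macrophages. Clu encodes clusterin, a chaperone outside the cell that also restrains the terminal complement complex.

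The microRNA that the inhibitor is named for is shown here because it defines the treatment. The mature microRNA, from RefSeq (GRCr8, minus strand of chr4:59752249-59752273), has its seed, bases 2 to 8, in capitals.
rno-miR-182: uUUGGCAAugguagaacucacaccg
The row of the Mir182 gene read between 4.93 and 6.57 on the log2 scale in the 6 treated animals and between 3.97 and 4.84 in the 6 placebo animals. The row was thus higher in the treated group on both days (means 6.40 against 4.67 at day 2 and 5.52 against 4.34 at day 7), the opposite of a loss of the microRNA. Both placebo means and the treated mean of day 7 lie below the array medians given in the next paragraph. The row is among the genes tested for treatment below, of which none passed on either day. Whether the row measures the mature microRNA or its precursor is not given in the sources used here, so the inhibition itself was not checked. No target site in the 4 markers was looked for.

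The tissue carried its defining kidney markers in all groups, among them the proximal tubule phosphate transporter Slc34a1 (9.28 to 10.47) and the thick limb glycoprotein Umod (11.19 to 11.95, log2 signals). Array medians lay between 5.98 and 6.10 at day 2 and between 5.84 and 5.93 at day 7, and 190 rows had values at day 7 only, so each day may have been normalized apart. Values are log2 signals of 1 row, which compare between arrays but not between genes. In bulk tissue, fewer cells of a type and less RNA per cell cannot be told apart. On the second principal component of all genes (10.2% of the variance) 1 array, the third replicate given anti-miR-182 and taken on day 2, lay at 29.4, against -15.4 to 9.2 for the other arrays. It is called the low day 2 animal below, because all 4 markers were lowest of the day in it, and the first placebo replicate of day 7 is called the low day 7 animal for the same reason. Results that rest on either are also given without it.

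At day 2 all 4 markers had lower mean signals in kidneys given anti-miR-182, as did 41.3% of all genes, and 1 treated animal was far below the rest. Lcn2 read 9.90, 9.95 and 7.33 in replicates 1 to 3 of anti-miR-182, and 10.40, 10.16 and 10.36 under placebo. All treated animals lay below all placebo animals for Lcn2, as was the case for 4.24% of all genes in that direction. The third treated animal differed from the mean of the other 2 by -2.60 on the log2 scale, while the placebo group had an SD of 0.13.

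Havcr1 read 10.92, 11.27 and 10.08 under anti-miR-182 and 11.13, 11.58 and 11.76 under placebo at day 2. The second treated animal lay above the first placebo animal, so the groups overlapped. Clu read 11, 10.43 and 9.03 under anti-miR-182 and 11.07, 10.52 and 10.95 under placebo. Here too the third treated animal was far below the rest, while the first lay within the placebo range and the second just under it. Spp1 read 12.05, 12.05 and 11.13 against 12.02, 12.09 and 12.22. The first and second treated animals lay within the placebo range for Spp1, and the third differed from their mean by -0.92.

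**Figure D1:**
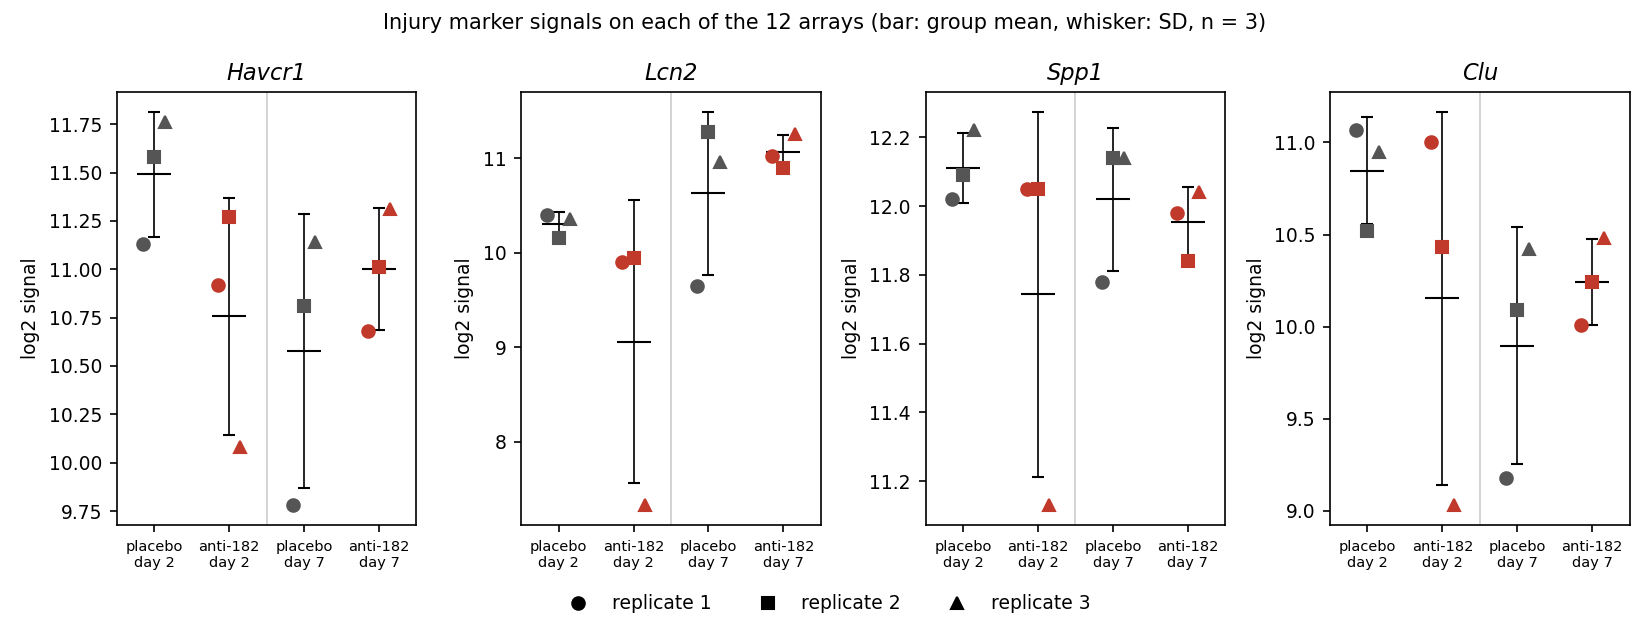
Log2 signal of Havcr1, Lcn2, Spp1 and Clu (vertical axes, a scale per gene) on each of the 12 arrays by group, with symbols for replicates, bars for group means and whiskers for the SD (n = 3); "anti-182" stands for anti-miR-182. The third treated replicate of day 2 and the first placebo replicate of day 7 lie lowest of their day in all 4 panels.

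The treatment comparison at day 2 asked whether injury markers differed under the inhibitor early after injury. The log2 difference, anti-miR-182 minus placebo, was -1.25 ± 0.55 for Lcn2 (SE, n = 3 per group), a 2.38-fold lower mean signal. It was -0.74 ± 0.33 for Havcr1, -0.69 ± 0.40 for Clu and -0.37 ± 0.20 for Spp1. With limma, which fitted all 12 arrays and adjusted over all genes by Benjamini-Hochberg, 0 of 4 members passed at an adjusted p under 0.05, nor did any other gene (0%; 6.61% had an unadjusted p under 0.05). Adjusted p ran from 0.754 for Havcr1 and Lcn2 to 0.766 for Clu. Before adjustment, Havcr1 and Lcn2 were under 0.05 as lower in limma, 2 of 4 members against 2.41% of all genes. Neither stayed under it without the low day 2 animal, with array weights or with every row tested. Havcr1 alone was lost with quantile normalization, and Lcn2 alone with days fitted alone. Both stayed under it with a variance trend, the filter on dim genes, median centring, the mean of rows and the animal number covariate. The exact two-sided permutation test, which cannot go below 0.1 with 3 animals against 3, gave 0.1 for Lcn2, 0.2 for Havcr1 and 0.3 for Spp1 and Clu.

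With the low day 2 animal left out, the differences were -0.38 ± 0.34 for Lcn2, -0.40 ± 0.33 for Havcr1, -0.13 ± 0.30 for Clu and -0.06 ± 0.13 for Spp1 (SE). All 4 kept their sign, and Havcr1 and Lcn2 then had an adjusted p of 0.791 and 0.807 in limma. With the first treated replicate left out instead, the values were -1.12 for Clu and -1.67 for Lcn2 (adjusted p = 0.43 for both in limma).

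At day 7 the order was turned for 3 of the markers, again with 1 animal apart, this time in the placebo group. Havcr1 read 10.68, 11.01 and 11.31 under anti-miR-182 and 9.78, 10.81 and 11.14 under placebo. Lcn2 read 11.03, 10.90 and 11.26 under anti-miR-182 and 9.65, 11.28 and 10.96 under placebo. Clu read 10.01, 10.24 and 10.48 against 9.18, 10.09 and 10.42. The first placebo animal was lowest of all 6 for these 3 genes, and the others overlapped with the treated group. Spp1 read 11.98, 11.84 and 12.04 against 11.78, 12.14 and 12.14, with the first placebo animal again lowest.

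The log2 differences at day 7 were 0.43 ± 0.33 for Havcr1, 0.44 ± 0.55 for Lcn2, 0.35 ± 0.40 for Clu and -0.07 ± 0.20 for Spp1 (SE, n = 3 per group). In limma 0 of 4 passed (adjusted p = 0.999 for each), as did 0% of all genes, and 0 of 4 had an unadjusted p under 0.05, against 3.26% of all genes. The 95% intervals reached from -0.29 to 1.14 for Havcr1 and from -0.73 to 1.61 for Lcn2, which is as far as 3 arrays a group narrowed them. With the low day 7 animal left out, the differences were 0.03 for Havcr1, -0.05 for Lcn2, -0.01 for Clu and -0.19 for Spp1.

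**Figure D2:**
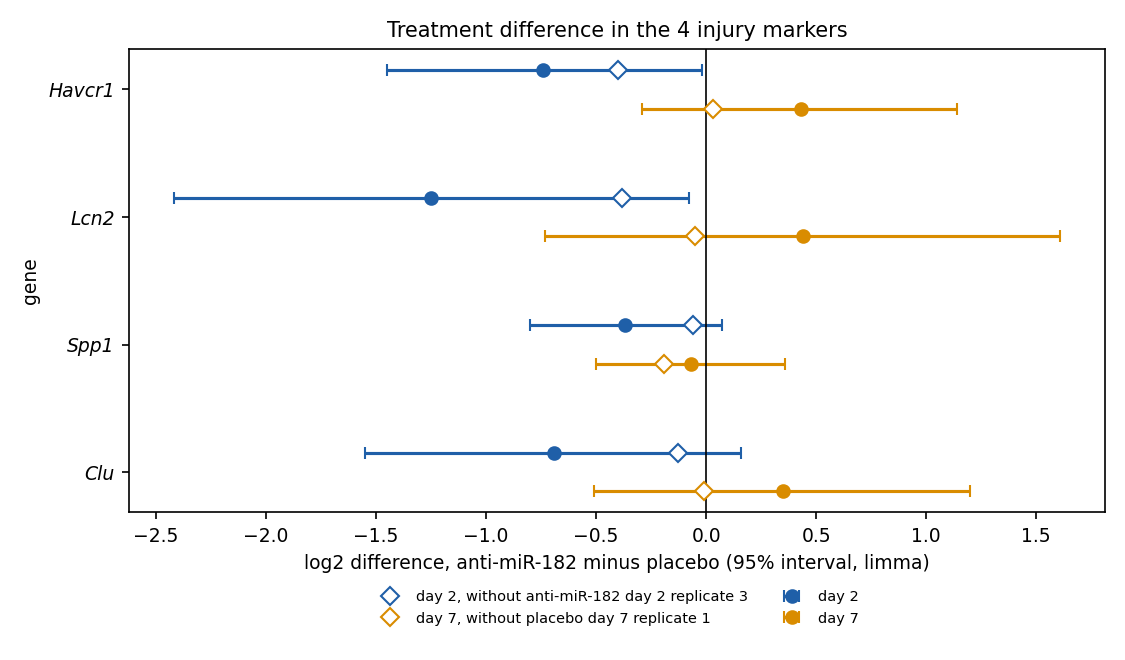
Log2 difference of anti-miR-182 minus placebo for each gene (horizontal axis) at both days, as filled points with 95% intervals from limma; open diamonds give the value without the animal lowest in all 4 genes on that day. Lcn2 lies at -1.25 at day 2 and at -0.38 without that animal, and at day 7 it moves from 0.44 to -0.05.

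Whether treatment acted differently on the days was tested as the difference of both differences. It was 1.16 ± 0.47 for Havcr1, 1.68 ± 0.77 for Lcn2, 1.04 ± 0.56 for Clu and 0.30 ± 0.29 for Spp1 (log2, SE). In limma 0 of 4 passed over all genes (adjusted p = 0.999 for each), as did 0% of all genes. Before adjustment, Havcr1 and Lcn2 were under 0.05 as higher in limma, against 1.22% of all genes (3.92% in either direction). Neither stayed under it with the low day 2 animal or the low day 7 animal left out. Exact two-sided permutation within days gave 0.07 for Havcr1, 0.06 for Lcn2, 0.18 for Clu and 0.56 for Spp1, with 0.005 the smallest value it can give. The permutation assumes no treatment difference on either day, so it does not test whether an equal difference held on both. With the low day 2 animal left out the log2 values were 0.82 for Lcn2, 0.83 for Havcr1, 0.48 for Clu and -0.01 for Spp1. With the low day 7 animal left out they were 1.20, 0.76, 0.68 and 0.18.

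Averaged over both days, the treatment difference was -0.15 ± 0.24 for Havcr1, -0.41 ± 0.39 for Lcn2, -0.22 ± 0.14 for Spp1 and -0.17 ± 0.28 for Clu (log2, SE). None of the 4 passed in limma (adjusted p = 0.9 to 0.958), where 0.0055% of all genes did, and 0 of 4 had an unadjusted p under 0.05, against 5.27%. Exact permutation within days gave 0.655, 0.53, 0.2 and 0.67 in that order. The averages without the low day 2 animal were 0.02 for Havcr1, 0.03 for Lcn2, 0.11 for Clu and -0.06 for Spp1. Without the low day 7 animal they were -0.35 for Havcr1, -0.65 for Lcn2, -0.35 for Clu and -0.28 for Spp1.

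Each day thus had 1 animal in which all 4 markers were lowest of the 6. The low day 2 animal differed from the mean of the other 5 arrays of its day by -2.83 for Lcn2, -1.77 for Clu, -1.25 for Havcr1 and -0.95 for Spp1 on the log2 scale. The low day 7 animal differed by -1.44 for Lcn2, -1.22 for Havcr1, -1.07 for Clu and -0.24 for Spp1. The low animals came from opposite treatments. Among all genes the day 2 animal was lowest of the 6 in 26.7% and the day 7 animal in 21%.

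**Figure D3:**
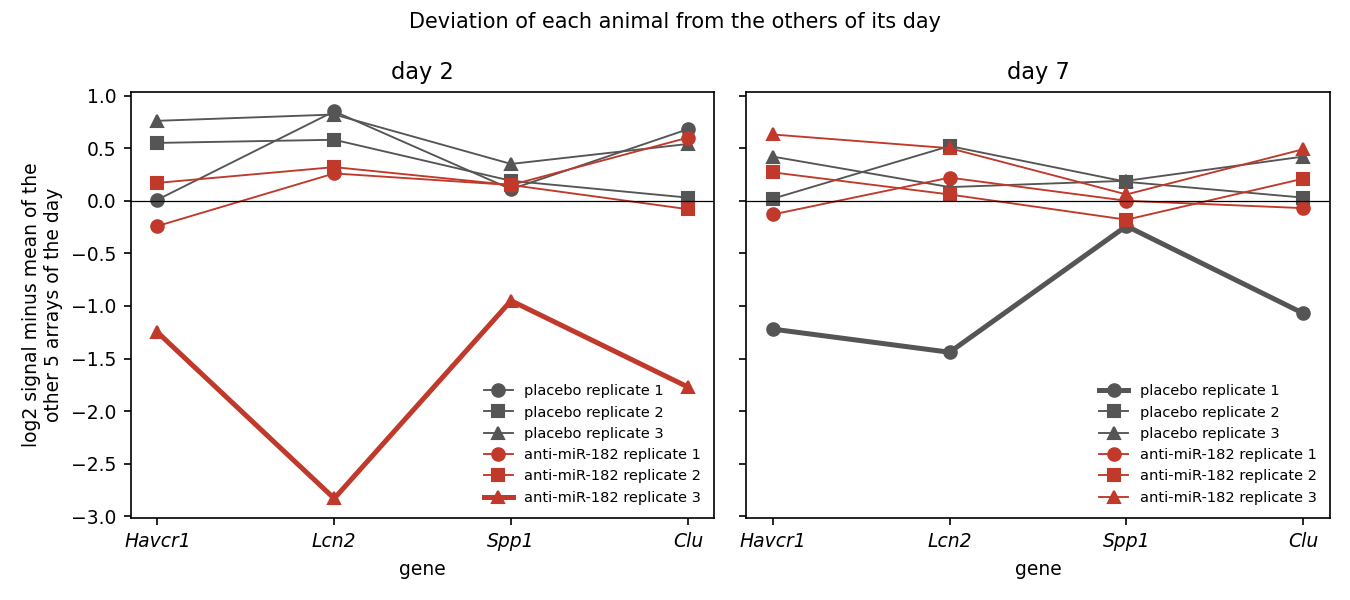
Log2 signal of each animal minus the mean of the other 5 arrays of its day (vertical axis) for the 4 genes (horizontal axis), day 2 at the left and day 7 at the right, with a line per animal. The thick lines are the low day 2 animal, at -2.83 for Lcn2, and the low day 7 animal, at -1.44 for Lcn2.

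Other injury genes were often lowest in the same animals, more so in the day 2 animal. Of 33 measured genes that injured tubules induce, such as the matrix inhibitor Timp1 and the intermediate filament Vim, 20 were lowest of the 6 in the day 2 animal and 12 in the day 7 animal. Among all genes these shares were 26.7% and 21%, and 2 and 3 of the 33 were instead highest. The mean log2 level of the 33 was 7.62 in the day 2 animal, against 7.95 to 8.19 in the other 5, and 7.74 in the day 7 animal against 7.82 to 8.21. Of 29 genes upstream of the markers, cytokines and transcription factors such as Il6, Stat3 and Nfkb1, 19 and 14 were lowest there.

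Thick ascending limb markers, which include Umod, Egf and the cotransporter Slc12a1, went the other way. Their mean log2 level was 10.53 in the day 2 animal, against 9.96 to 10.37 in the other 5, and 10.62 in the day 7 animal against 9.75 to 10.12. Of these 6 markers, 3 were highest of the 6 arrays in the day 2 animal and 6 in the day 7 animal, against 18.8% and 12.2% of all genes. Collecting duct markers did so in only 1 of both animals: 7 of 9 were highest in the day 7 animal (mean 7.71 against 7.21 to 7.53), while in the day 2 animal 1 of 9 was highest and 2 were lowest (7.64 against 7.57 to 8.10). Urothelium markers (5 measured, mean 6.48 against 5.67 to 6.39) were also highest in the day 7 animal, while at day 2 they were lowest in the low animal (5.89 against 5.95 to 6.27). Macrophage markers (12 measured) had their lowest mean of the day in both animals, 6.91 against 7.0 to 7.22 and 7.14 against 7.23 to 8.35. Of 6 distal convoluted and connecting tubule markers, 4 were highest in the day 2 animal and 1 in the day 7 animal. Their means (8.71 and 7.99) lay within those of the other 5, as did proximal tubule means (10.59 and 9.58). Lymphocyte markers had the lowest mean of the day in the day 7 animal (6.09 against 6.23 to 6.84). In the day 2 animal they did not (5.94 against 5.89 to 6.24). The part of these cell types in the low marker signals was not tested.

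Neutrophils also make Lcn2, so their markers were set beside it. The mean log2 level of 11 measured neutrophil markers ran from 5.37 to 5.50 under anti-miR-182 and from 5.34 to 5.46 under placebo at day 2, and from 5.21 to 5.30 and from 5.17 to 5.49 at day 7. All these means lie below the array medians. In the low day 2 animal, whose Lcn2 signal was 7.33, the neutrophil mean was 5.50, with 4 of the 11 markers highest and 2 lowest of the day. In the low day 7 animal, with a Lcn2 signal of 9.65, the neutrophil mean of 5.17 was lowest (others 5.21 to 5.49). Of the 11 markers, 2 were lowest and 0 highest of that day. Single markers differed in the low day 2 animal: Mpo, at 5.27, was the lowest of the day (others 5.30 to 5.59), and S100a9, at 4.86, shared the highest value. Elane, at 5.52, lay within the range of the others (5.21 to 5.55). Macrophages make Spp1, and the low day 7 animal had the lowest macrophage mean (7.14) and the lowest Spp1 signal (11.78) of its day, while the second placebo replicate, with a macrophage mean of 8.35, and the third, at 7.5, both had a Spp1 signal of 12.14. The part of neutrophils and macrophages in the Lcn2 and Spp1 signals was not tested.

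Across the 6 animals of a day, the 4 markers were compared pair by pair, which gave 12 relations, with p-values adjusted over them by Benjamini-Hochberg. Havcr1 and Clu kept nearly the same order and spacing at day 7. Pearson's r was 0.997 (exact permutation p = 0.00139, adjusted 0.0167) and Spearman's rho 1.0 (exact p = 0.00278, adjusted 0.0334). It stayed at 0.99 without the 2 animals farthest from the median of Havcr1. At day 2 the same pair had r = 0.758 (exact permutation p = 0.119, adjusted 0.143) and rho 0.14 (exact p = 0.803, adjusted 0.803). That value rested on the low day 2 animal, since r was -0.29 without it and -0.74 without the 2 farthest. Whether the relation differed between days was not tested.

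Havcr1 and Spp1 at day 2 had r = 0.923 (exact permutation p = 0.00556, adjusted 0.0334) but rho 0.83 (exact p = 0.0583, adjusted 0.35), and r was 0.82 without the low animal and 0.68 without the 2 farthest. Centring each array on its median moved the adjusted p of this pair to 0.05 (exact permutation), with r = 0.929. The other 9 relations had r from 0.626 to 0.981 and did not pass by Pearson's r or by rho. Lcn2 and Spp1 at day 2, with the highest of these (0.981, exact permutation p = 0.0514, adjusted 0.103), had rho 0.37 (exact p = 0.497, adjusted 0.596) and r = 0.39 without the low day 2 animal, though 0.94 without the 2 farthest. Lcn2 and Clu at day 7 had r = 0.893 (exact permutation p = 0.0847, adjusted 0.124), rho 0.37 (exact p = 0.497, adjusted 0.596), r = 0.39 without the 2 farthest and r = 0 without the low day 7 animal alone.

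**Figure D4:**
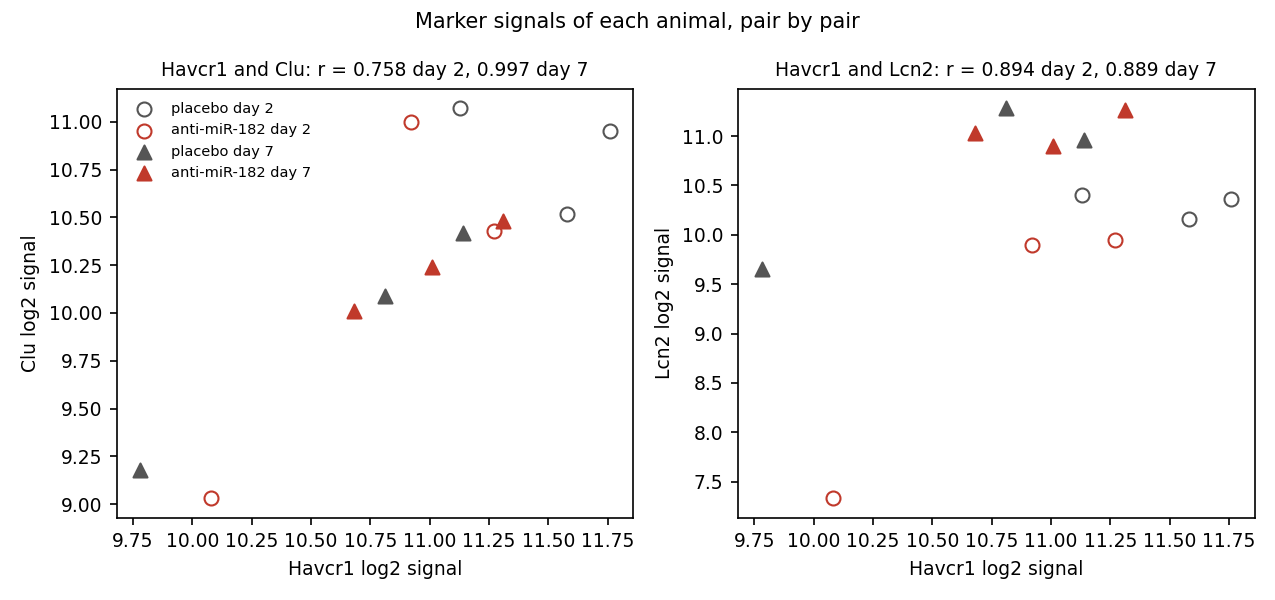
Log2 signal of Clu (left) and Lcn2 (right) against Havcr1 in each animal, with open circles for day 2 and filled triangles for day 7, grey for placebo and red for anti-miR-182. The day 7 triangles lie close to a line for Clu (r = 0.997), and in the right panel the low animal of each day stands apart from the other 5.

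The genes most like each marker were found over the 12 arrays after subtracting each day's mean, among 9083 genes with a mean signal above the median. These correlations are descriptions of 12 shared arrays that include both low animals. Havcr1 was most like Il17rb, a subunit of an interleukin 17 receptor (r = 0.96), the phosphatase Ptp4a1 (0.948) and Cdca7 (0.944). Lcn2 was most like Slc34a2, a sodium-phosphate cotransporter (0.973), Phlda1 (0.971) and the ribosomal protein Rpl3 (0.954). Spp1 was most like F2rl1, a protease-activated receptor (0.977), Xpo6 (0.957), Phlda1 (0.956) and the laminin chain Lamc1 (0.954). Clu was most like Rasd1 (0.953), Smtnl2 (0.952), Slc34a2 (0.948) and the retinoic acid receptor Rara (0.948). Slc34a2 was thus among the nearest genes of both Lcn2 and Clu, and Phlda1 of both Lcn2 and Spp1. Among the markers themselves, Lcn2 came 9th in likeness to Clu (0.935) and 10th to Spp1 (0.935), while Clu came 72nd to Havcr1 (0.829). Havcr1 came 147th to Lcn2 (0.861), 166th to Clu (0.829) and 430th to Spp1 (0.786), and the other places ran from 15th to 145th.

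The comparison of day 7 with day 2 asked how the markers stood as repair went on. Day, and any separate normalization of the days, cannot be told apart in it. All genes had a median log2 difference of -0.18 in placebo and -0.21 under anti-miR-182. Of the genes called in placebo 84.9% were lower at day 7, which became 49.3% after quantile normalization and 65.5% after median centring, and under anti-miR-182 these shares were 90.3%, 51.4% and 57.2%.

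In placebo kidneys Havcr1 and Clu had lower means at day 7, by -0.92 ± 0.33 and -0.95 ± 0.40 (log2, SE, n = 3 per group). Neither passed in limma (adjusted p = 0.0542 and 0.087), and 0 of 4 members did, against 28% of all genes. All placebo animals at day 7 lay below all at day 2 for Clu, as did 40% of all genes in that direction, while for Havcr1 the groups just overlapped, with 11.14 the highest at day 7 and 11.13 the lowest at day 2. Lcn2 differed by 0.32 ± 0.55 and Spp1 by -0.09 ± 0.20. With the low day 7 animal left out the Havcr1 and Clu differences were -0.52 and -0.59 (adjusted p = 0.224 and 0.306 in limma), and that of Lcn2 was 0.81. Leaving out the low day 2 animal, which enters only through the shared spread, brought both past the threshold in limma (adjusted p = 0.0317 and 0.02). Havcr1 also passed in limma without the third placebo array of day 7 (-1.20, adjusted p = 0.0278) and without the second treated array of day 2 (adjusted p = 0.0487), and over all settings its adjusted p ran from 0.0174 to 0.273. After quantile normalization the placebo differences were -0.59 for Havcr1 and -0.61 for Clu (adjusted p = 0.273 and 0.341 in limma), 0.65 for Lcn2 and 0.21 for Spp1.

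Under anti-miR-182 Lcn2 rose from day 2 to day 7 by 2.0 ± 0.55 (log2, SE, n = 3 per group), a 4.01-fold higher mean signal. It passed in limma (adjusted p = 0.0165), as did 27.5% of all genes in either direction and 2.68% as higher. All 3 animals at day 7 (10.90 to 11.26) lay above all 3 at day 2 (7.33 to 9.95), as was the case for 5.36% of all genes. With the low day 2 animal left out the rise was 1.14 ± 0.34 (adjusted p = 0.0277 in limma). The call ended without the third treated array of day 7 (1.91, adjusted p = 0.0535 in limma) and with the animal number above or below 90 as a covariate (1.61, adjusted p = 0.101). All day 2 animals were numbered above 90 and most day 7 animals were not, so this covariate largely followed day. Over all settings the adjusted p of Lcn2 in limma ran from 0.00993 to 0.101.

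The other 3 markers did not pass with time under anti-miR-182. Havcr1 differed by 0.25 ± 0.33, Spp1 by 0.21 ± 0.20 and Clu by 0.09 ± 0.40 (log2, SE). Leaving out the low day 2 animal, these were -0.09, -0.10 and -0.47, and after quantile normalization they were 0.55, 0.46 and 0.39. The rise of Lcn2 under anti-miR-182 and its smaller difference in placebo were not shown to differ, since the test of that difference is the one between days given above (1.68, adjusted p = 0.999 in limma).

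**Figure D5:**
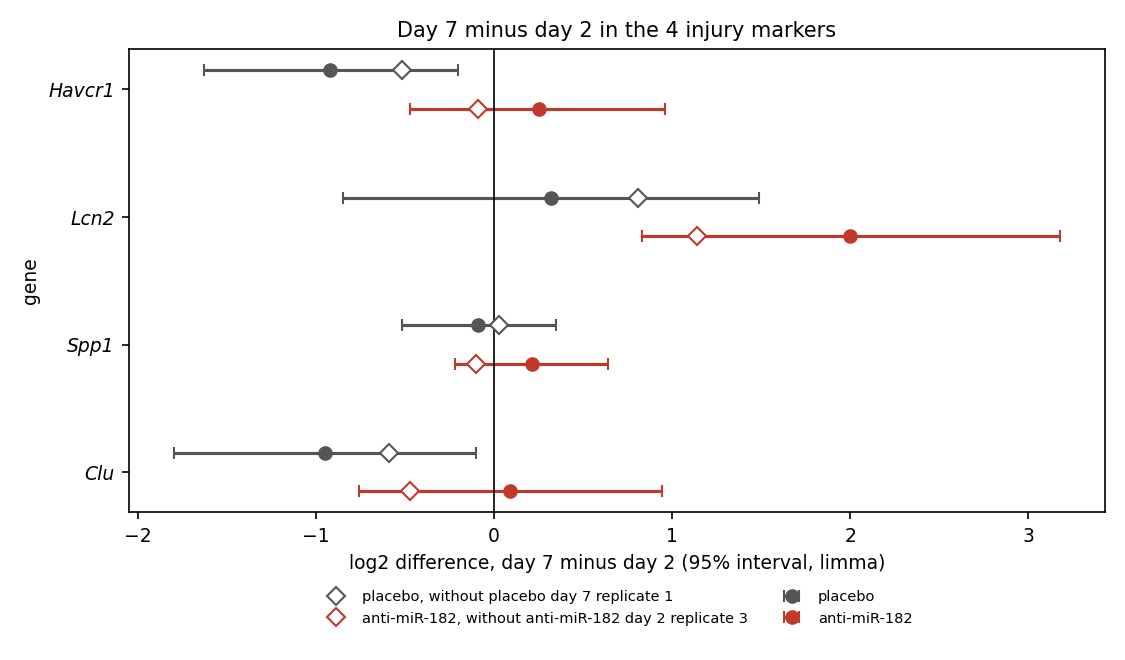
Log2 difference of day 7 minus day 2 for each gene (horizontal axis) in placebo and under anti-miR-182, as filled points with 95% intervals from limma; open diamonds give the value without the low animal in that comparison. Lcn2 lies at 2.0 under anti-miR-182 and at 1.14 without the low day 2 animal, and Havcr1 and Clu lie below 0 in placebo with and without the low day 7 animal.

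The proteins that act with the 4 markers were read from the same fits. Lists of receptors, relatives and regulators held 0 genes called by limma in the treatment comparison at either day, the same share as all genes, while 6 of 33 induced injury genes had an unadjusted p under 0.05 at day 2 (6.61% of all genes) and 0 at day 7 (3.26%). At day 2, 23 of the 33 induced injury genes were lower under anti-miR-182, as were 41.3% of all genes, with a median log2 difference of -0.19 (all genes 0.03), and -0.07 without the low day 2 animal. The smallest p-values belonged to the calcium-binding Anxa2 (-0.72 ± 0.16), the heme oxygenase Hmox1 (0.50 ± 0.15) and the osteopontin and hyaluronan receptor Cd44 (-0.70 ± 0.22). Without the low day 2 animal these differences were -0.59, 0.65 and -0.49. At day 7, 21 of the 33 were lower (median -0.08, where 50.2% of all genes were lower), and without the low day 7 animal 28 were (median -0.19). The kidney peptides Egf (1.02 ± 0.34) and Umod (0.37 ± 0.15) had higher means under anti-miR-182 at day 2, and Tff3 (0.85 ± 0.19) at day 7. Without the low animal of that day the differences were 0.80 for Egf, 0.28 for Umod and 0.75 for Tff3. These 3 genes come from a list of 10 urinary markers. In that list the day 2 difference was positive for 7 and negative for 3 (median 0.22). Without the low day 2 animal it was positive for 5 and negative for 5 (median 0.02). The day 7 difference was positive for 4 and negative for 6 (median -0.04), and without the low day 7 animal positive for 6 and negative for 4 (median 0.09). None of the genes named here passed over all genes (adjusted p = 0.569 or above in limma).

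For Havcr1, the related receptor gene Timd2 fell in placebo from day 2 to day 7 (-0.95 ± 0.24, adjusted p = 0.0103 in limma; -0.63 and 0.0661 after quantile normalization), while its treatment differences were -0.33 ± 0.24 at day 2 and 0.32 ± 0.24 at day 7, and the sheddase Adam17 differed by 0.07 at day 2 and 0.03 at day 7. For Lcn2, the endocytic receptor Lrp2, which takes up lipocalin 2 and clusterin, fell with time in placebo (-0.43 ± 0.13, adjusted p = 0.0298 in limma); the call ended after quantile normalization (-0.09), after median centring (-0.33), with every row tested, and without any 1 of 5 of the 6 placebo arrays (adjusted p = 0.0563 to 0.105). For Spp1, the 15 measured receptors, proteases and relatives held 1 called higher and 2 called lower with time in placebo, among them the integrin Itgb6 (-0.54 ± 0.14, adjusted p = 0.014 in limma). The Itgb6 call ended without the low day 7 animal (-0.39, adjusted p = 0.0608 in limma) and after quantile normalization (-0.20, 0.345). For Clu, 7 of 10 receptors and terminal complement genes fell with time in placebo, with a median of -0.42, where 23.7% of all genes were called lower and 4.22% higher, among them C8b (-1.02 ± 0.20, adjusted p = 0.00313 in limma) and Lrp8 (-0.58 ± 0.13, 0.00691); 4 of the 10 were called lower without the low day 7 animal. After quantile normalization 4 were called lower and 1 higher, and after median centring 2 were called lower. The day 7 placebo means of C8b (5.06) and Lrp8 (5.81) lie below the array medians. So do the placebo means of C8a (5.18 and 4.8) and C9 (4.54 and 4.03) on both days, which were also called lower. Of the 29 regulators, 3 were called higher and 2 lower with time in placebo, where 28% of all genes were called. Il6, whose means of 4.01 and 4.97 lie below the array medians, rose (0.96 ± 0.13, adjusted p = 0.000301 in limma), and the AP-1 subunit Fosl1 (-0.74 ± 0.14, 0.00224) and the checkpoint kinase Chek1 (-0.89 ± 0.17, 0.00281) fell.

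The stretches before the starts of Lcn2 and Havcr1 are shown because these genes had the smallest p-values of the 4 at day 2. RefSeq promoters (GRCr8) were matched for 3 of the 4 genes, Havcr1, Lcn2 and Spp1. Capitals mark matches, on either strand, to letters of factors known to act in injury. The search for NF-kB took 3 G, any 5 letters and 2 C. That for C/EBP took TTGCNNAA and that for STAT took TTCNNNGAA. The letters of the regulator AP-1 were TGANTCA. Those of the TATA box, a core promoter element rather than the site of an injury factor, were TATAAA. The Lcn2 stretch is chr3:36081852-36082030 on the minus strand, 179 bases from 250 to 72 before the start, and that of Havcr1 is chr10:31629528-31629777 on the plus strand, bases 250 to 1 before the start. The Havcr1 gene spans chr10:31619914-31652955 in RefSeq, so its stretch lies inside the gene, before a start other than the farthest.
Lcn2: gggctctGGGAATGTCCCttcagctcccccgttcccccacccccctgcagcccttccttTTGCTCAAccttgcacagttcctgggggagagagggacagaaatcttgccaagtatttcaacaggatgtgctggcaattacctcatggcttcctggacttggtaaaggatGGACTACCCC
Havcr1: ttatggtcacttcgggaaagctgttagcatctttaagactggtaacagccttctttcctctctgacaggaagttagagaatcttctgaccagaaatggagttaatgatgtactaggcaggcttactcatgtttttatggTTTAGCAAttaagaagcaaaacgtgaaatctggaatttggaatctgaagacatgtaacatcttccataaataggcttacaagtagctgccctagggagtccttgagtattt
In Lcn2 the NF-kB letters matched 3 times, on both strands of overlapping positions from base 243 to 233 before the start and again from base 81 to 72, and 42.3% of all RefSeq promoters of 250 bases hold them. The C/EBP letters matched once in Lcn2 (bases 191 to 184) and once in Havcr1 (111 to 104), against 9.22% of all promoters. In Spp1 the TATA box letters matched at bases 204 to 199 (12.9% of all promoters). The Spp1 window (chr14:5619805-5620054, minus strand) likewise lies inside its annotated gene (chr14:5613569-5620695). The STAT and AP-1 letters were not found in these 3 windows (7.67% and 6.34% of all promoters hold them). These are matches of letters only.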

How the data were processed

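Total RNA of 12 rat kidneys was amplified and biotin-labelled for arrays, per the labels' protocols. The authors deposited log2 signals, 36685 rows with values from 1.48 to 13.37, made with RMA, per the submitters' processing notes; its version is not given in the sources used here. RMA sets arrays on a common distribution, so levels depend on which arrays went through it together. The platform annotation gave 18511 rows with 1 symbol, 575 with several and 17599 not listed; 18472 single symbols were in the RefSeq table, and the 291 genes with several rows were taken by their brightest row, giving 18166 genes. Groups came from the sample titles, and replicates are numbered in accession order. No array was left out; arrays of a group correlated at 0.978 or more.

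All arrays entered 1 limma fit (version 3.58.1, R 4.3.3) with a mean for each of the 4 groups, and p-values were adjusted by Benjamini-Hochberg over all genes, with 0.05 as threshold. Exact tests used Python 3.11.15. Fits were tested on simulated data with noise drawn separately for each gene and array. That simulation held no animal low in many genes at once, so it does not bear on the low animals. The members, gene lists and tests were chosen with earlier results of these data known. Genes named from lists are those of the up to 4 smallest p-values per list and comparison; genes of like pattern are the 5 with the highest r. Other settings were days fitted alone, a variance trend, array weights, a filter on dim genes, quantile normalization, median centring, the mean of rows, every row, an animal number covariate, leaving out single arrays, and a threshold of 0.1.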

Additional observations from a re-analysis of the deposited data

How the results depend on the processing

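The treatment comparisons at day 2, at day 7, averaged and between days called 0 of 4 markers in limma under every alternative run; the average and the difference between days were not run with days fitted alone. Day 7 against day 2 in placebo called 0 of 4, but 2 with an adjusted p under 0.1 or array weights, 1 without the dimmest 50% of genes, and 0 to 2 with 1 array left out. Under anti-miR-182 it called 1 of 4 (Lcn2), 0 with the animal number as covariate, and 0 to 1 with 1 array left out. Of the correlations 2 of 12 passed, and 1 after centring each array on its median, an alternative chosen after seeing the data.

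Signs turned only for differences that did not pass. In placebo with time, Spp1 (-0.09) was 0.21 after quantile normalization and 0.01 after median centring, and Lcn2 (0.32) was -0.07 with the animal number as covariate. Under anti-miR-182 with time, array weights gave -0.05 for Havcr1 (0.25) and -0.12 for Clu (0.09), and the animal number gave -0.15 for Clu. With 1 array left out, the treatment ranges were -0.05 to 0.76 for Lcn2 and -0.01 to 0.61 for Clu at day 7. For the average they were -0.35 to 0.02 for Havcr1, -0.65 to 0.03 for Lcn2 and -0.39 to 0.11 for Clu, and for the difference between days -0.01 to 0.45 for Spp1. With time they were -0.01 to 0.81 for Lcn2 and -0.15 to 0.03 for Spp1 in placebo, and -0.09 to 0.50 for Havcr1, -0.10 to 0.36 for Spp1 and -0.47 to 0.51 for Clu under anti-miR-182.

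Over all genes, day 7 against day 2 called 5080 in placebo and 5002 under anti-miR-182, but 2914 and 2695 after quantile normalization, 3364 and 2651 without the dimmest 50% of genes, and 2470 under anti-miR-182 after median centring. Leaving out 1 array also moved them by over 1.5 times, to 3198, 3212 or 3306 in placebo (without replicate 1, 2 or 3 of day 2), and to 3069, 3221 or 3229 under anti-miR-182 (without replicate 2 of day 2, or replicate 1 or 3 of day 7). The number of arrays and, for time, any separate normalization of the days limit these results. The causes of the changes were not tested. No paired analysis was possible because the labels give each array an animal code of its own and no shared replicate numbers.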
